A study of Homo sapiens with 12 samples.

Results

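The 9 genes described here build, empty and steer the cell's iron store: the ferritin chains FTH1 and FTL, the ferritin receptor NCOA4, the uptake genes TFRC, SLC11A2 and STEAP3, the exporter SLC40A1, and the iron sensors IREB2 and ACO1. They were chosen by name for their role in iron handling, out of 57527 genes with a value in the deposited table. Earlier results of these data were known when they were chosen, and the p-values below do not allow for that. All 9 passed the filter on low values that left 16789 genes for testing. The cells were HK-2, an immortalised human proximal tubule epithelial line, exposed for 72 h to a suspension of 2,8-dihydroxyadenine (DHA) of 60, 120 or 240 ug/ml, or to medium alone (control). DHA is a purine of low solubility whose crystals damage the kidney in people who lack the enzyme APRT. There were 4 groups of 3 libraries, 12 in total, from 1 line and 1 time, and the labels mention neither a carrier for the suspension nor a control that received it. No source used here says that the libraries of a group are separate cultures, and p-values therefore cover the spread among libraries alone, which may be technical.

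Cells take up iron bound to transferrin through the transferrin receptor (TFRC); in the endosome STEAP3 reduces it and DMT1 (SLC11A2) carries it into the cytosol. Iron that is not used is stored in ferritin, a shell of heavy chains (FTH1), which oxidise the iron, and light chains (FTL), which help it to mineralise. NCOA4 delivers ferritin to the lysosome to free the iron, and ferroportin (SLC40A1) is the only known exporter of iron from mammalian cells. When iron is scarce, the iron regulatory proteins IRP1 (ACO1) and IRP2 (IREB2) bind a hairpin, the iron-responsive element. In a 5′ UTR this blocks translation, as in the ferritin mRNAs, and in the 3′ UTR of TFRC it protects the mRNA from decay. In kidney, proximal tubule cells recover filtered iron and transferrin.

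The elements are shown because the members differ in which end of the mRNA carries them, and the level of an mRNA is what was measured here. They were found in GENCODE 29 transcript sequences on GRCh38 by searching the sense strand for a C, then NNNNN, then the loop CAGTGN, with the bases after the loop able to pair with the NNNNN before it (G with T allowed). The capitals mark the loop, and the flanks are in lower case.
FTH1, 5′ UTR, chr11:61967575-61967601, minus strand: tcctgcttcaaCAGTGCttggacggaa
FTL, 5′ UTR, chr19:48965336-48965362, plus strand: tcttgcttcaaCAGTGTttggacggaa
SLC40A1, 5′ UTR, chr2:189580662-189580688, minus strand: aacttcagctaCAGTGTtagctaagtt
TFRC, 3′ UTR, chr3:196050980-196051006, minus strand: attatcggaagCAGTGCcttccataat
TFRC, 3′ UTR, chr3:196050576-196050602, minus strand: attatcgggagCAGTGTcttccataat
TFRC, 3′ UTR, chr3:196050511-196050537, minus strand: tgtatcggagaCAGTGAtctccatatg
TFRC, 3′ UTR, chr3:196050464-196050490, minus strand: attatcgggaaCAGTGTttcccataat
SLC11A2, 3′ UTR, chr12:50988269-50988296, minus strand: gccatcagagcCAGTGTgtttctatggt

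The SLC11A2 element needed 1 unpaired base on the 3′ side of its stem. IREB2 held a match of that looser kind in its 3′ UTR as well, and the letters were not found in NCOA4, STEAP3 or ACO1. Such a match is a description and not a tested site. Of 80499 protein-coding transcripts, 0.088% held a fully paired match in the 5′ UTR and 0.26% in the 3′ UTR, while matches with 1 unpaired base were held by 0.154% and 0.445% of them.

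The deposited values are a normalised signal per transcript, summed here per gene, and no read depth can be had from them, so how deeply each library was sequenced is unknown. The libraries differed in their total signal, which was 1143850 to 1228979 in control, 984048 to 1060084 at 60 ug/ml, 875886 to 962259 at 120 ug/ml and 791808 to 969479 at 240 ug/ml. A second scaling that gave every library the same total was therefore run beside the deposited one. Over all genes the median difference from control became 0.14 at 60, 0.27 at 120 and 0.33 at 240 ug/ml on the log2 scale, each against -0.03 with the deposited scaling, so small changes changed sign with it. Of 13 proximal tubule markers, 3 had a mean of at least 1 (SLC5A2, GGT1 and PAX8), while the uptake receptors LRP2 and CUBN were among those below 1; of 6 epithelial markers, 5 were at or above 1. The summed signal of 5 fibroblast markers (COL1A1, DCN and LUM at or above 1, PDGFRA and PDGFRB below) was 247 to 342 in control, 114 to 217 at 60, 66.8 to 76.4 at 120 and 38.8 to 65.9 at 240 ug/ml. Their part in the results below was not tested.

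Against control, limma called 1 of the 9 genes higher and 2 lower at 60 ug/ml, 1 higher and 3 lower at 120 ug/ml, and 1 higher and 4 lower at 240 ug/ml, at a Benjamini-Hochberg adjusted p of 0.05. Over all 16789 genes, 8.89%, 15.9% and 19.7% were called higher at the 3 doses and 10.0%, 20.8% and 23.5% lower. All DHA libraries lay above all control libraries in 1, 1 and 2 of the 9 genes at 60, 120 and 240 ug/ml, and below them in 3, 4 and 5, beside 16.2%, 21.7% and 24.2% of all genes above and 20.3%, 27.3% and 28.7% below. With equal library totals the numbers called became 3 higher and 2 lower, 5 and 3, and 5 and 3 at the 3 doses, beside 16.6% and 3.91%, 36.3% and 8.21%, and 42.9% and 9.12% of all genes. The F test for any difference among the 4 groups called 6 of the 9 (FTL, TFRC, SLC40A1, NCOA4, STEAP3 and IREB2), against 42.7% of all genes. The counts describe 9 chosen genes, and nothing is read from them about the group as a whole. TFRC was higher, and NCOA4 and SLC40A1 lower, at the upper doses under the deposited scaling, equal totals and quantile normalisation alike, whereas the direction of FTL, FTH1, SLC11A2 and STEAP3 depended on the scaling at 1 or more doses.

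**Figure D1:**
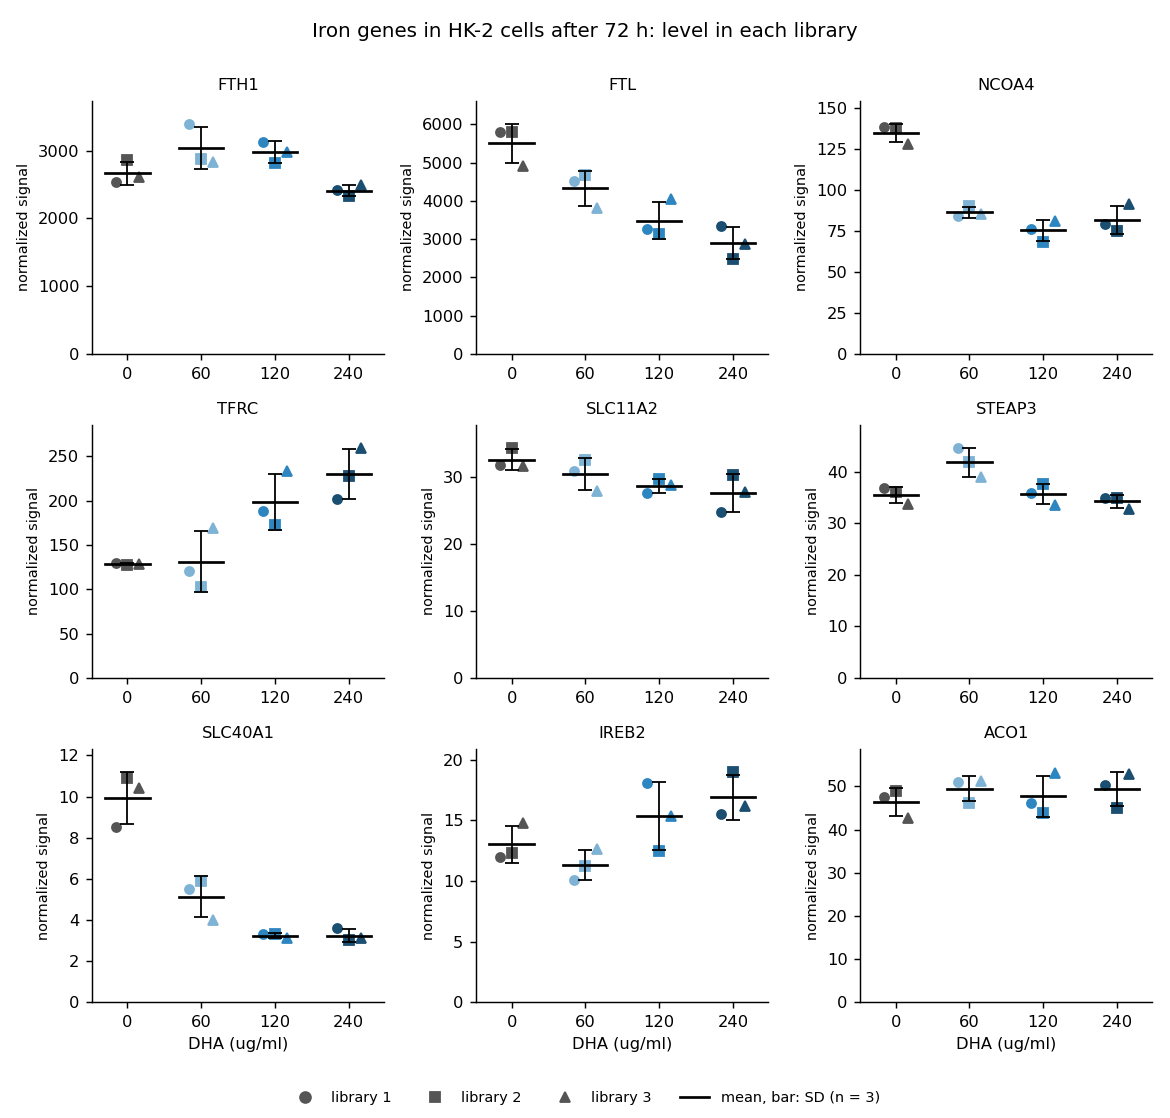
Level of each of the 9 genes (normalised signal, vertical axis from 0) in every library at 0 (control), 60, 120 and 240 ug/ml DHA; symbols are libraries, the line is the mean and the bar the SD of 3 libraries. TFRC averaged 129 in control and 230 at 240 ug/ml, while SLC40A1, NCOA4 and FTL lie lower at 240 ug/ml than in control; the direction of FTL, unlike theirs, turned under quantile normalisation.

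Ferritin light chain mRNA was lower at the upper 2 doses, while no difference in the gene sum of the heavy chain passed the test with the deposited scaling. FTL (ENSG00000087086, chromosome 19, 48965301 to 48966878 on the plus strand) had a signal of 5795.5, 5801.2 and 4912.4 in the control libraries, 4509.1, 4676.7 and 3804.8 in the 60 ug/ml libraries, 3268.5, 3141.9 and 4049.4 in the 120 ug/ml libraries, and 3331.3, 2485.0 and 2874.1 in the 240 ug/ml libraries. Every DHA library lay below the lowest control library, and the 60 and 240 ug/ml groups did not overlap either. The log2 fold change against control was -0.35 at 60 ug/ml, where the limma adjusted p was 0.185, then -0.66 (adjusted p = 0.0103) at 120 ug/ml and -0.93 (SE 0.17, adjusted p = 0.00116) at 240 ug/ml. With equal totals FTL was still lower, with a log2 fold change of -0.29 (adjusted p = 0.0451) at 120 ug/ml and -0.50 (adjusted p = 0.00222) at 240 ug/ml. Quantile normalisation turned its sign, to 0.25, 0.23 and 0.01 at 60, 120 and 240 ug/ml (limma adjusted p = 0.0679, 0.0645 and 0.921). Without the filter on low values the 120 ug/ml call was lost (adjusted p = 0.0657). In bulk RNA, fewer cells of a kind and less RNA per cell cannot be told apart.

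FTH1 (ENSG00000167996, chromosome 11, 61959718 to 61967660 on the minus strand) had a signal of 2540.1, 2860.9 and 2606.9 in control, 3396.1, 2875.5 and 2835.3 in the 60 ug/ml libraries, 3134.9, 2811.2 and 2982.7 in the 120 ug/ml libraries, and 2416.6, 2324.9 and 2492.6 in the 240 ug/ml libraries. The groups at 60 and 120 ug/ml reached above the control libraries, and all 3 libraries at 240 ug/ml lay just below them. None of these differences was called by limma with the deposited scaling. The log2 fold change was 0.18 at 60 ug/ml (95% interval -0.09 to 0.46), 0.16 at 120 ug/ml (-0.12 to 0.43) and -0.15 at 240 ug/ml (-0.42 to 0.13), with adjusted p-values of 0.352, 0.356 and 0.379. With equal totals FTH1 was called higher at all 3 doses (0.39, 0.53 and 0.29, adjusted p = 0.0217, 0.00174 and 0.0377). The same held with quantile normalisation (0.76, 0.98 and 0.75, adjusted p = 0.00561, 5.15e-04 and 0.00198). With a length trend subtracted FTH1 was called higher at 120 ug/ml (0.41, limma adjusted p = 0.0189), as it was with the replicate block and both trends (0.43, adjusted p = 0.0137). The sum rests on transcripts that moved in opposite directions, described further on.

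A ratio of 2 genes in the same library does not depend on how the library was scaled, and 6 such ratios were tested. FTH1 over FTL was 0.438, 0.493 and 0.531 in control, 0.753, 0.615 and 0.745 in the 60 ug/ml libraries, 0.959, 0.895 and 0.737 in the 120 ug/ml libraries, and 0.725, 0.936 and 0.867 in the 240 ug/ml libraries. Every one of the 9 DHA libraries lay above every control library. The mean log2 ratio was 0.71 higher in the DHA libraries, with a two-sided exact permutation p of 0.00909, the smallest that 9 against 3 libraries can give, and 0.0182 after Benjamini-Hochberg adjustment over the 6 ratios. At each dose alone the smallest exact p that 3 against 3 libraries allow is 0.1. How often a ratio of other genes separates all DHA libraries from control was not tested, so the 6 ratios have no such share beside them. By the F test, 42.7% of all genes differed among the groups. FTL and FTH1 are short mRNAs (878 and 900 bases on average), and among the 1274 shortest protein-coding genes tested, up to 1021 bases, the median log2 fold change at 240 ug/ml was -0.47 and 51% were called lower. With a length trend subtracted, FTL was at -0.41 (limma adjusted p = 0.0433) at 120 ug/ml and -0.65 (adjusted p = 0.00404) at 240 ug/ml, against -0.66 and -0.93 without it.

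**Figure D2:**
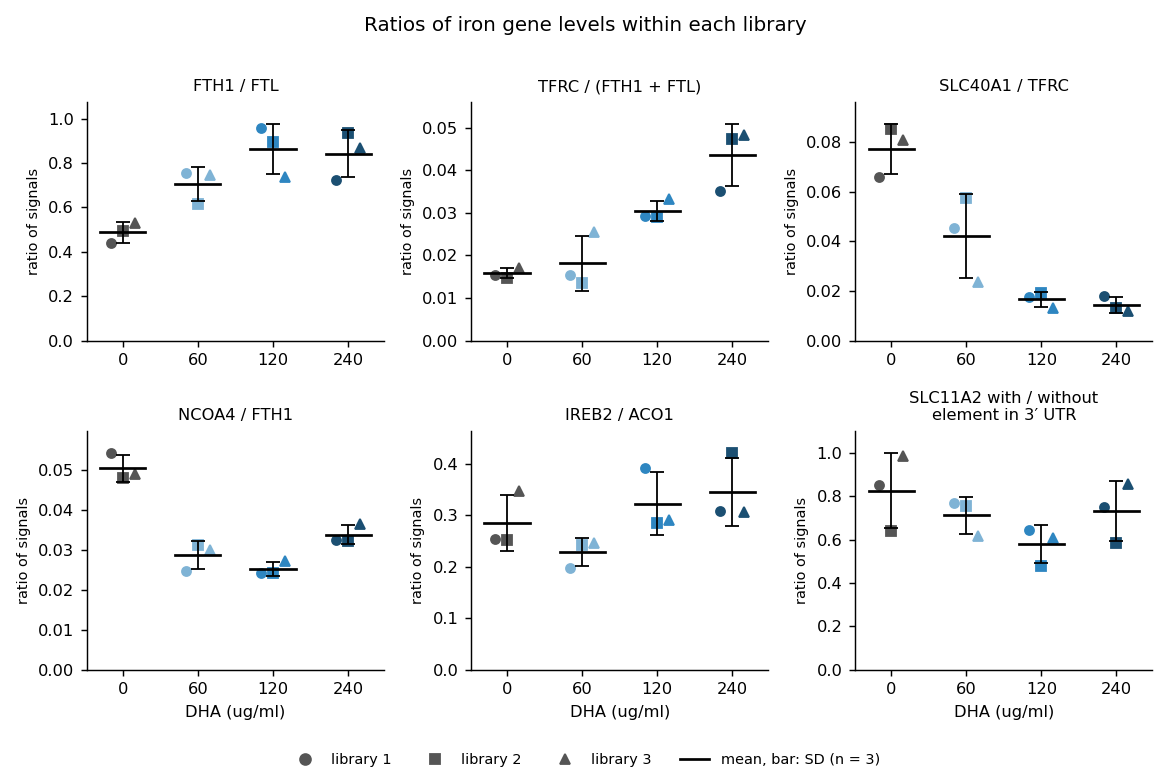
Ratios of signals within each library (vertical axes from 0) at 0 (control), 60, 120 and 240 ug/ml DHA; symbols are libraries, the line is the mean and the bar the SD of 3 libraries. FTH1 over FTL is above every control library in all 9 DHA libraries, SLC40A1 over TFRC and NCOA4 over FTH1 are below. The SLC11A2 ratio overlaps control at every dose, and IREB2 over ACO1 does so at 120 and 240 ug/ml but lies just below it at 60 ug/ml.

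NCOA4 mRNA, which encodes the receptor that brings ferritin to the lysosome, was lower from the lowest dose on. NCOA4 (ENSG00000266412, chromosome 10, 46005088 to 46030714 on the minus strand) had a signal of 138.2, 137.4 and 128.0 in control, 83.9, 90.2 and 85.2 in the 60 ug/ml libraries, 76.2, 68.4 and 81.1 in the 120 ug/ml libraries, and 78.9, 75.1 and 91.3 in the 240 ug/ml libraries. No DHA library came near the control range, and the 240 ug/ml libraries overlapped both other DHA groups. The log2 fold changes of NCOA4 were -0.63, -0.83 and -0.72 at 60, 120 and 240 ug/ml (SE 0.09, limma adjusted p = 0.00111, 6.51e-05 and 9.81e-05). These calls were kept with equal totals, at -0.43, -0.47 and -0.29 (adjusted p = 0.00579, 0.00118 and 0.0153), and without any single library.

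NCOA4 over FTH1 was 0.0544, 0.048 and 0.0491 in control, 0.0247, 0.0314 and 0.03 in the 60 ug/ml libraries, 0.0243, 0.0243 and 0.0272 in the 120 ug/ml libraries, and 0.0326, 0.0323 and 0.0366 in the 240 ug/ml libraries. The mean log2 ratio fell by 0.80 in the 9 DHA libraries (exact permutation p = 0.00909, adjusted p = 0.0182), and no DHA library reached the control range.

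Among the uptake genes, the transferrin receptor was higher at the upper 2 doses. With the deposited scaling, calls for the endosomal carrier and reductase were small and were lost when single libraries were left out. TFRC (ENSG00000072274, chromosome 3, 196027183 to 196082189 on the minus strand) had a signal of 129.1, 127.9 and 128.8 in control, 121.1, 103.0 and 169.0 in the 60 ug/ml libraries, 187.9, 172.7 and 233.3 in the 120 ug/ml libraries, and 202.3, 228.2 and 259.4 in the 240 ug/ml libraries. The control libraries were nearly identical, the 60 ug/ml libraries spread on either side of them because the third library was high, and all 6 libraries at 120 and 240 ug/ml lay above every other library.
TFRC rose by 0.61 on the log2 scale at 120 ug/ml (adjusted p = 0.0143) and by 0.83 at 240 ug/ml (SE 0.17, adjusted p = 0.00209), which is 1.77-fold, and the difference at 60 ug/ml was -0.00 (adjusted p = 0.995) by limma. Without the third 120 ug/ml library the value at 120 ug/ml was 0.48 and the call was lost (adjusted p = 0.0553). With equal totals TFRC was at 0.20, 0.97 and 1.25 at 60, 120 and 240 ug/ml (limma adjusted p = 0.493, 0.00116 and 1.50e-04).

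SLC11A2 (ENSG00000110911, chromosome 12, 50979401 to 51028566 on the minus strand) had a signal of 31.7, 34.3 and 31.6 in control, 30.8, 32.5 and 27.8 in the 60 ug/ml libraries, 27.5, 29.6 and 28.8 in the 120 ug/ml libraries, and 24.7, 30.3 and 27.7 in the 240 ug/ml libraries. The upper 2 doses lay below control without overlap. The log2 fold change at 240 ug/ml was -0.23 (SE 0.09, limma adjusted p = 0.0458), a call that was lost without any of 9 of the 12 libraries (adjusted p = 0.0551 to 0.167) and that turned to 0.18 (adjusted p = 0.24) with equal totals. Its values at 60 and 120 ug/ml turned as well (-0.10 and -0.18 with the deposited scaling, 0.10 and 0.18 with equal totals). STEAP3 (ENSG00000115107, chromosome 2, 119223831 to 119265652 on the plus strand) had a signal of 36.8, 36.1 and 33.8 in control, 44.6, 41.9 and 39.0 in the 60 ug/ml libraries, 35.8, 37.6 and 33.6 in the 120 ug/ml libraries, and 35.0, 34.9 and 32.8 in the 240 ug/ml libraries. With the deposited scaling STEAP3 stood above control at 60 ug/ml alone, with 0.23 on the log2 scale (SE 0.07, limma adjusted p = 0.0497). This call was lost without any of 10 of the 12 libraries (adjusted p = 0.0526 to 0.172). At 120 and 240 ug/ml the STEAP3 values were 0.00 and -0.05 (limma adjusted p = 0.979 and 0.588) with the deposited scaling. With equal totals STEAP3 was called higher at all 3 doses (0.43, 0.36 and 0.37, adjusted p = 0.00989, 0.0102 and 0.00773).

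The exporter ferroportin showed the largest fold change of the 9 genes at each dose under the deposited scaling, at a low level. SLC40A1 (ENSG00000138449, chromosome 2, 189560579 to 189583758 on the minus strand) had a signal of 8.5, 10.9 and 10.4 in control, 5.5, 5.9 and 4.0 in the 60 ug/ml libraries, 3.3, 3.3 and 3.1 in the 120 ug/ml libraries, and 3.6, 3.0 and 3.1 in the 240 ug/ml libraries. Each group lay below the control libraries, and the upper 2 doses lay below 60 ug/ml and overlapped each other.
It fell by 0.84 on the log2 scale at 60 ug/ml and by 1.36 at both 120 and 240 ug/ml (SE 0.14, limma adjusted p = 0.00228, 4.55e-05 and 2.92e-05). Because 1 was added to each value before the logarithm, these figures understate the change of a gene this low. With equal totals the values were -0.65, -1.05 and -1.0 (adjusted p = 0.00719, 1.58e-04 and 1.25e-04).

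The ratio of exporter to transferrin receptor mRNA, SLC40A1 over TFRC, was 0.0658, 0.0852 and 0.0807 in control, 0.0454, 0.0573 and 0.0237 in the 60 ug/ml libraries, 0.0176, 0.0191 and 0.0133 in the 120 ug/ml libraries, and 0.0178, 0.0131 and 0.012 in the 240 ug/ml libraries. The mean log2 ratio fell by 1.88 in the DHA libraries (exact permutation p = 0.00909, adjusted p = 0.0182), and no DHA library reached the control range. TFRC over the sum of FTH1 and FTL was 0.0155, 0.0148 and 0.0171 in control, 0.0153, 0.0136 and 0.0255 in the 60 ug/ml libraries, 0.0293, 0.029 and 0.0332 in the 120 ug/ml libraries, and 0.0352, 0.0474 and 0.0483 in the 240 ug/ml libraries. The upper 2 doses lay above control, but the 60 ug/ml libraries overlapped it, and over all 9 DHA libraries the difference of 0.85 had an exact permutation p of 0.0818 (adjusted p = 0.123).

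Of the iron sensors, IRP2 mRNA lay higher at 240 than at 60 ug/ml, a call lost with a GC trend subtracted. IRP1 mRNA showed no difference that passed the test with the deposited scaling. IREB2 (ENSG00000136381, chromosome 15, 78437431 to 78501456 on the plus strand) had a signal of 12, 12.3 and 14.8 in control, 10.1, 11.2 and 12.6 in the 60 ug/ml libraries, 18.1, 12.5 and 15.4 in the 120 ug/ml libraries, and 15.5, 19.0 and 16.2 in the 240 ug/ml libraries. The 240 ug/ml libraries lay above all control and 60 ug/ml libraries. Against control the log2 fold change at 240 ug/ml was 0.35 (95% interval 0.05 to 0.65, limma adjusted p = 0.0563), just past the threshold on the uncalled side. It was called without the third control library or the first or second 120 ug/ml library (adjusted p = 0.0343 to 0.0413), and with equal totals (0.75, adjusted p = 0.00244). At 120 ug/ml IREB2 was at 0.21 (limma adjusted p = 0.256) with the deposited scaling and at 0.55 (adjusted p = 0.018) with equal totals.

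ACO1 (ENSG00000122729, chromosome 9, 32384603 to 32454769 on the plus strand) had a signal of 47.5, 48.9 and 42.7 in control, 51.1, 46.2 and 51.2 in the 60 ug/ml libraries, 46.2, 43.8 and 53.1 in the 120 ug/ml libraries, and 50.4, 45.1 and 52.8 in the 240 ug/ml libraries. All 4 groups overlapped. The log2 fold change of ACO1 at 240 ug/ml was 0.09 (95% interval -0.11 to 0.29, limma adjusted p = 0.464) with the deposited scaling. With equal totals ACO1 was called higher at all 3 doses (0.30, 0.40 and 0.51, adjusted p = 0.034, 0.0033 and 4.72e-04). IREB2 over ACO1 averaged 0.284 ± 0.0546 in control and 0.229 ± 0.027, 0.322 ± 0.0601 and 0.345 ± 0.0659 at 60, 120 and 240 ug/ml (SD, n = 3 each), with an exact permutation p of 0.827 over the 9 DHA libraries. At 60 ug/ml the 3 libraries, at 0.198, 0.242 and 0.246, lay just below the lowest control library (0.252), and the upper 2 doses overlapped control.

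**Figure D3:**
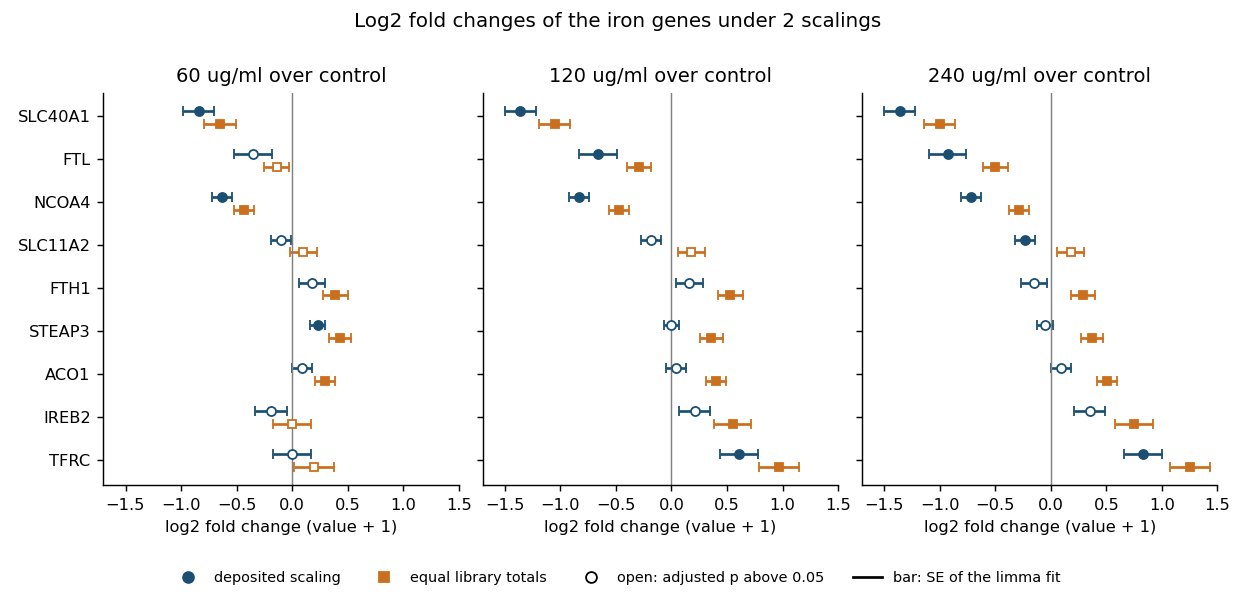
Log2 fold change of each gene over control (value + 1, horizontal axis) at 60, 120 and 240 ug/ml, with the deposited scaling (circles) and with equal library totals (squares); bars are SE of the limma fit and open symbols have an adjusted p above 0.05. SLC40A1, NCOA4 and FTL lie left of 0 and TFRC right of it at 240 ug/ml under both scalings, while FTH1, SLC11A2 and STEAP3 change side; under quantile normalisation, not drawn, FTL turned to 0.01.

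Between doses, calls were made at 240 over 60 ug/ml. At 240 over 60 ug/ml limma called 2 of the 9 genes higher and 3 lower, against 11.7% and 13.1% of all genes. TFRC was 0.83 higher on the log2 scale (adjusted p = 0.00616) and IREB2 0.54 higher (adjusted p = 0.0155). In the same limma fit the lower genes were FTL at -0.58 (adjusted p = 0.0283), SLC40A1 at -0.52 (adjusted p = 0.0171) and STEAP3 at -0.28 (adjusted p = 0.0177).

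The TFRC call was kept without any single library. With a length trend subtracted the FTL call was lost (-0.43, limma adjusted p = 0.0509). The other 4 calls between 240 and 60 ug/ml were each lost without the first or the second 60 ug/ml library. FTL and SLC40A1 were also lost without the second or the third 240 ug/ml library, IREB2 without the second and STEAP3 without the third. Where the calls were lost, the limma adjusted p was 0.0696 to 0.103 for FTL, 0.0558 to 0.0756 for SLC40A1, 0.0523 to 0.0665 for IREB2 and 0.0584 to 0.0781 for STEAP3. With equal totals SLC40A1 and STEAP3 were no longer called (-0.35 and -0.06, adjusted p = 0.0847 and 0.676). With a GC trend subtracted the IREB2, FTL and STEAP3 calls were lost. Those of IREB2 and FTL were also lost with the replicate block and both trends.

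At 120 over 60 ug/ml none of the 9 was called, against 0.536% of all genes higher and 1.61% lower; TFRC was at 0.61 (adjusted p = 0.0663) and SLC40A1 at -0.52 (adjusted p = 0.0604) by limma. Without the third 60 ug/ml library, in which TFRC read 169.0 against 121.1 and 103.0 in the other two, TFRC (0.81, adjusted p = 0.00741), SLC40A1 (-0.66, adjusted p = 0.0093) and STEAP3 (-0.27, adjusted p = 0.039) were called. The same 3 genes were called with a replicate block in the limma fit, beside 699 genes higher and 1086 lower over all genes. At 240 over 120 ug/ml none was called, and limma called 0 of all genes (0.00% in either direction), with 1331 genes at an unadjusted p under 0.05.

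The table is per transcript, and 44 transcripts of the 9 genes could be tested. None was called higher and 4 were called lower at 60 ug/ml, 4 higher and 4 lower at 120 ug/ml, and 6 higher and 8 lower at 240 ug/ml, against 1.68% and 1.75%, 6.76% and 8.13%, and 9.74% and 10.6% of the 61128 transcripts tested. How reads shared by overlapping transcripts were divided is set by a quantification tool that no source used here names, so these values are less direct than gene sums.

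FTH1 holds 12 transcripts in the annotation, 10 of them with the element, and 3 carried most of its signal. The full-length FTH1-201 (1229 bases) had a signal of 1011.4, 798.3 and 890.2 at 240 ug/ml, against 1384.5, 1205.6 and 1273.9 in control, a log2 fold change of -0.52 (limma adjusted p = 0.0195). That call was lost with equal totals (-0.09, adjusted p = 0.586) and without the first control library or the second or the third 240 ug/ml library (adjusted p = 0.0567 to 0.0743).
FTH1-206 (550 bases) ends in an exon of 83 bases at chr11:61959822-61959904 that lies 4380 bases beyond the end of FTH1-201. It had 963.0, 1043.7 and 1055.7 in control, 1373.1, 1104.3 and 954.8 in the 60 ug/ml libraries, 1300.5, 873.7 and 1045.5 in the 120 ug/ml libraries, and 300.4, 247.1 and 322.0 in the 240 ug/ml libraries. It fell at 240 ug/ml alone, by 1.82 on the log2 scale (SE 0.17, limma adjusted p = 1.16e-04), and the groups at 60 and 120 ug/ml overlapped control.

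FTH1-212 (825 bases) keeps the element but lacks 94 bases at chr11:61967454-61967547, inside the first exon of FTH1-201. It had 107.2, 513.3 and 186.5 in control, 637.6, 427.3 and 806.6 in the 60 ug/ml libraries, 714.8, 617.9 and 816.4 in the 120 ug/ml libraries, and 1023.9, 1178.7 and 1162.0 in the 240 ug/ml libraries. The control libraries differed widely, yet every library at 120 and 240 ug/ml lay above them. The log2 fold change of FTH1-212 was 1.47 at 60 ug/ml (limma adjusted p = 0.1), 1.71 at 120 ug/ml (adjusted p = 0.0253) and 2.36 at 240 ug/ml (SE 0.44, adjusted p = 0.00394). The 120 ug/ml call was lost without the first or the third control library or any 120 ug/ml library (adjusted p = 0.0529 to 0.0755), and at 60 ug/ml FTH1-212 was called without the second control library (2.09, adjusted p = 0.0169).
Without FTH1-206, a choice made after these values were seen, the FTH1 sum averaged 1648 ± 147 in control and 1892 ± 126, 1903 ± 59.4 and 2122 ± 46.6 at 60, 120 and 240 ug/ml (SD, n = 3 each). FTH1 was then higher at 240 ug/ml by 0.37 (limma adjusted p = 0.0183), where the full sum gave -0.15.

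**Figure D4:**
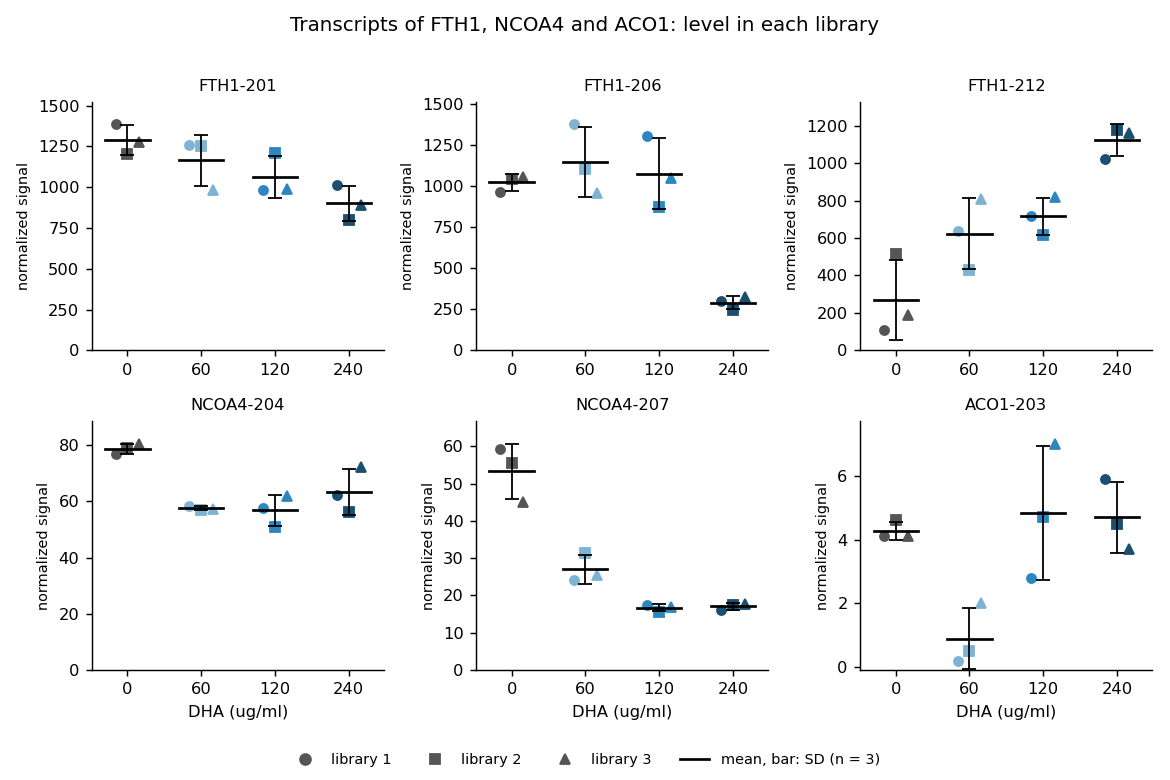
Signal of 3 FTH1 transcripts, 2 NCOA4 transcripts and ACO1-203 in every library at 0 (control), 60, 120 and 240 ug/ml DHA; symbols are libraries, the line is the mean and the bar the SD of 3 libraries. FTH1-206 drops at 240 ug/ml alone, FTH1-212 lies highest at 240 ug/ml, NCOA4-207 is below control at every dose, and ACO1-203 is low at 60 ug/ml alone.

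The fall of NCOA4 differed in size between transcripts with different first exons. NCOA4-207, which starts at chr10:46023330-46023455, had 59.2, 55.6 and 45.0 in control, 24.1, 31.4 and 25.5 in the 60 ug/ml libraries, 17.4, 15.6 and 16.9 in the 120 ug/ml libraries, and 16, 17.4 and 17.7 in the 240 ug/ml libraries. NCOA4-204, which starts at chr10:46030526-46030714 and shares 8 of its 10 exons with NCOA4-207, had 76.8, 79.0 and 80.4 in control, 58.4, 56.9 and 57.4 in the 60 ug/ml libraries, 57.7, 51.0 and 62.0 in the 120 ug/ml libraries, and 62.2, 56.1 and 72.3 in the 240 ug/ml libraries. Both stood below control at every dose without overlap.
NCOA4-207 had log2 fold changes of -0.95, -1.61 and -1.58 (limma adjusted p = 0.00507, 9.81e-05 and 5.42e-05), and the values for NCOA4-204 were -0.44, -0.47 and -0.31 (adjusted p = 0.0398, 0.0117 and 0.0506). With equal totals the NCOA4-204 calls at 60 and 120 ug/ml were lost (-0.24 and -0.10, adjusted p = 0.205 and 0.487), and at 60 ug/ml the call was also lost without any of 8 of the 12 libraries (adjusted p = 0.0535 to 0.117). NCOA4-207 over NCOA4-204 was 0.771, 0.704 and 0.56 in control, 0.413, 0.552 and 0.444 in the 60 ug/ml libraries, 0.302, 0.306 and 0.273 in the 120 ug/ml libraries, and 0.257, 0.31 and 0.245 in the 240 ug/ml libraries. The lowest control value lay just above the highest DHA value, and this ratio, picked after the values were seen, was not tested.

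The SLC11A2 transcripts fall into forms with and without the element in the 3′ UTR. Those with it summed to 14.6 ± 1.15 in control and 12.7 ± 1.81, 10.4 ± 0.723 and 11.5 ± 1.14 at 60, 120 and 240 ug/ml, and those without it to 18 ± 2.61 in control and 17.7 ± 0.7, 18.2 ± 1.67 and 16 ± 2.69 (SD, n = 3 each). SLC11A2-223 (mean 0.45) and SLC11A2-228 (0.183) hold the same letters but no coding sequence, and were counted as without it. The sum with the element lay below control without overlap at 120 and 240 ug/ml, and the sum without it overlapped control at every dose. The ratio of the 2 sums overlapped control at every dose, and over the 9 DHA libraries its log2 difference of -0.29 had an exact permutation p of 0.155 (adjusted p = 0.185). The most abundant form with the element, SLC11A2-202, was not called at any dose, with 0.0596 as its lowest limma adjusted p. The minor form SLC11A2-205 was lower at 240 ug/ml (-0.98, adjusted p = 0.0322), a call lost with equal totals (adjusted p = 0.0725) and without any of 4 of the libraries (adjusted p = 0.0953 to 0.1).

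The remaining genes were each led by 1 transcript, though STEAP3 was shared by STEAP3-201 (mean 21.7 over all libraries) and STEAP3-203 (13.2). Neither of these STEAP3 forms was called at any dose. The minor form STEAP3-204 was higher at 240 ug/ml (0.58, limma adjusted p = 0.0464), a call lost without any of 9 of the 12 libraries (adjusted p = 0.0551 to 0.133). TFRC-201, which carries the TFRC elements, had log2 fold changes of 0.01, 0.60 and 0.86 at 60, 120 and 240 ug/ml (limma adjusted p = 0.986, 0.0449 and 0.00662), and SLC40A1-201 of -0.87, -1.27 and -1.30 (adjusted p = 0.0103, 4.03e-04 and 2.21e-04). The TFRC-201 call at 120 ug/ml was lost without any of 9 of the 12 libraries (adjusted p = 0.0504 to 0.14). ACO1-203, a minor form, had 4.1, 4.6 and 4.1 in control, 0.2, 0.5 and 2.0 in the 60 ug/ml libraries, 2.8, 4.7 and 7.0 in the 120 ug/ml libraries, and 5.9, 4.5 and 3.7 in the 240 ug/ml libraries. It was lower at 60 ug/ml alone (-1.58, limma adjusted p = 0.0308), a call lost without any of 5 of the 6 libraries compared (adjusted p = 0.0782 to 0.107).
The signal assigned to near-identical copies was small beside that of the parent genes, and reads of a copy assigned to its parent would not show in it. The 25 genes named FTH1P with a number summed to 0.4 to 3.1 per library, at most 0.128% of FTH1, with FTH1P2 (0.658) and FTH1P3 (0.225) the highest means, and the 16 named FTLP to 0.0 to 2.1, at most 0.0427% of FTL, led by FTLP14 (0.55) and FTLP6 (0.15). No gene that overlaps a member had a mean above 0.48.

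Genes that work beside the 9 members were read from 9 lists of 98 genes in all. Of the genes for iron uptake and reduction, 9 of 13 could be tested, and 4 were higher and 3 lower at 240 ug/ml, with a median log2 fold change of -0.21 beside -0.03 over all genes. With equal totals 4 were higher and 0 lower, with a median of 0.20 beside 0.33 over all genes. For these lists, 19.7% of all genes higher and 23.5% lower is the background at 240 ug/ml with the deposited scaling, and 42.9% and 9.12% with equal totals. STEAP1 and STEAP2, of the same family as STEAP3, rose by 0.88 and 0.70 at 240 ug/ml (limma adjusted p = 0.00127 and 0.00548). They averaged 7.13 ± 1.1 and 3.27 ± 0.896 at 240 ug/ml, against 3.43 ± 0.702 and 1.6 ± 0.265 in control (SD, n = 3 each). The ferrireductase CYBRD1 averaged 36.1 ± 2.94 at 240 ug/ml and 51.1 ± 1.95 in control, and the lipocalin receptor SLC22A17 averaged 2.97 ± 0.451 and 5 ± 0.529. Both were called lower (-0.49 and -0.60, limma adjusted p = 3.29e-04 and 0.00865), and neither was with equal totals (-0.07 and -0.25, adjusted p = 0.58 and 0.255). TF, STEAP4, LRP2 and CUBN did not pass the filter on low values.

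Among the genes for iron sensing and decay of the TFRC mRNA, all 8 were tested, with 1 higher and 3 lower at 240 ug/ml and a median of -0.09. FBXL5, the subunit of the ligase that marks IRP2 for degradation, averaged 30.8 ± 0.777 at 240 ug/ml and 46.3 ± 0.7 in control (-0.57, limma adjusted p = 4.54e-05), and it was called lower at all 3 doses. The mitochondrial iron-sulfur protein CISD1 averaged 26.4 ± 4.35 and 40.7 ± 2.11 (-0.62, adjusted p = 0.00624). RC3H1, which encodes the RNA-binding protein Roquin-1, averaged 8.17 ± 0.651 and 6.03 ± 0.603 (0.38, adjusted p = 0.0152), a call lost without the second control or the second 240 ug/ml library (adjusted p = 0.058 to 0.0649). With equal totals no gene of this list was called lower and 4 were called higher, FBXL5 being at -0.15 (adjusted p = 0.137).

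The split of the iron-sulfur and heme genes into higher and lower depended on the scaling. Of 21 genes for mitochondrial iron and iron-sulfur assembly, 4 were higher and 7 lower at 240 ug/ml (median -0.12). With equal totals 10 were higher and 1 lower (median 0.28). The chaperone HSPA9 averaged 114 ± 13.3 at 240 ug/ml and 67.4 ± 3.52 in control (0.75, limma adjusted p = 8.91e-04), and the mitochondrial transporter ABCB10 averaged 17.7 ± 1.08 and 11.6 ± 0.265 (0.57, adjusted p = 4.90e-04). The assembly factors ISCA2 (20.9 ± 5.42 and 35.9 ± 1.25) and NFU1 (22.2 ± 2.89 and 38.3 ± 3.52) were lower, with log2 fold changes of -0.78 and -0.76 (adjusted p = 0.00124 and 0.00257), and with equal totals ISCA2 was still called (-0.36, adjusted p = 0.0126) but NFU1 was not (adjusted p = 0.0641). Of 9 cytosolic assembly genes, 1 was higher, NDOR1 (0.73, adjusted p = 3.61e-04), and 2 were lower, CIAO2A (-0.63, adjusted p = 0.00951) and CIAO2B (-0.54, adjusted p = 0.00642), with a median of -0.18. With equal totals 3 of the cytosolic genes were higher and 0 lower (median 0.24).

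Of 15 tested genes of heme synthesis, breakdown and transport, 3 were higher and 4 lower at 240 ug/ml (median -0.12). The counts were 6 higher and 1 lower with equal totals (median 0.24). Heme oxygenase 1 (HMOX1), which frees iron from heme, had 36.0, 40.5 and 34.3 in control, 50.4, 35.5 and 48.6 in the 60 ug/ml libraries, 73.2, 61.9 and 92.2 in the 120 ug/ml libraries, and 83.7, 103.6 and 110.6 in the 240 ug/ml libraries. The groups at 120 and 240 ug/ml lay above control, and the log2 fold change at 240 ug/ml was 1.40 (SE 0.17, limma adjusted p = 8.05e-05). The lysosomal heme transporter SLC48A1 rose from the lowest dose on, with 0.78 at 60 ug/ml and 0.80 at 240 ug/ml (adjusted p = 0.00169 and 3.02e-04). ALAD, an enzyme of heme synthesis, averaged 12.9 ± 0.755 at 240 ug/ml and 27.6 ± 2.46 in control (-1.04, adjusted p = 8.64e-05) and was also called with equal totals (-0.63, adjusted p = 0.00207). BLVRB, a biliverdin reductase, was lower (-0.67, adjusted p = 0.00157), a call lost with equal totals (adjusted p = 0.0667).

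Of 7 tested genes whose mRNAs are reported to carry an iron-responsive element, 2 were higher and 3 lower at 240 ug/ml (median 0.01). With equal totals these counts were 3 and 1 (median 0.29). CDC42BPA (0.51, limma adjusted p = 0.00444) and the hypoxia factor EPAS1 (0.32, adjusted p = 0.0149) were higher, the EPAS1 call being lost without the third control or the second 240 ug/ml library (adjusted p = 0.0553 to 0.0634). APP was among the lower genes with the deposited scaling (-0.49, limma adjusted p = 0.00177) but not with equal totals (-0.05, adjusted p = 0.596). Of 7 tested iron chaperones and ferritin turnover genes none was higher and 2 were lower. These were PCBP4 (-0.63, limma adjusted p = 1.32e-04) and BOLA2 (-0.75, adjusted p = 0.0059), and neither was called with equal totals (adjusted p = 0.103 and 0.101). Then 5 of the list were higher and 0 lower (median 0.34, beside -0.09 with the deposited scaling). BOLA2 has a near-identical copy, so its level is uncertain. Of 8 genes of export and the hepcidin axis only NEO1 passed the filter, and it was not called.

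Among 6 genes that guard against ferroptosis, a form of cell death driven by iron-dependent lipid peroxidation, or supply its substrates, 2 were higher and 2 lower at 240 ug/ml (median 0.20). With equal totals the counts were 4 and 1 (median 0.59). The cystine importer subunits SLC7A11 and SLC3A2 averaged 9.63 ± 1.36 and 114 ± 9.59 at 240 ug/ml, against 3.4 ± 0.9 and 44.3 ± 2.92 in control (1.29 and 1.34, limma adjusted p = 8.39e-04 and 1.16e-04). GPX4, the peroxidase that repairs lipid peroxides, averaged 438 ± 83.7 at 240 ug/ml and 905 ± 36.5 in control (-1.06, adjusted p = 8.37e-05), and was also called with equal totals (-0.63, adjusted p = 1.19e-04). LPCAT3 was lower (-0.52, adjusted p = 2.59e-04), but not with equal totals (adjusted p = 0.408).

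**Figure D5:**
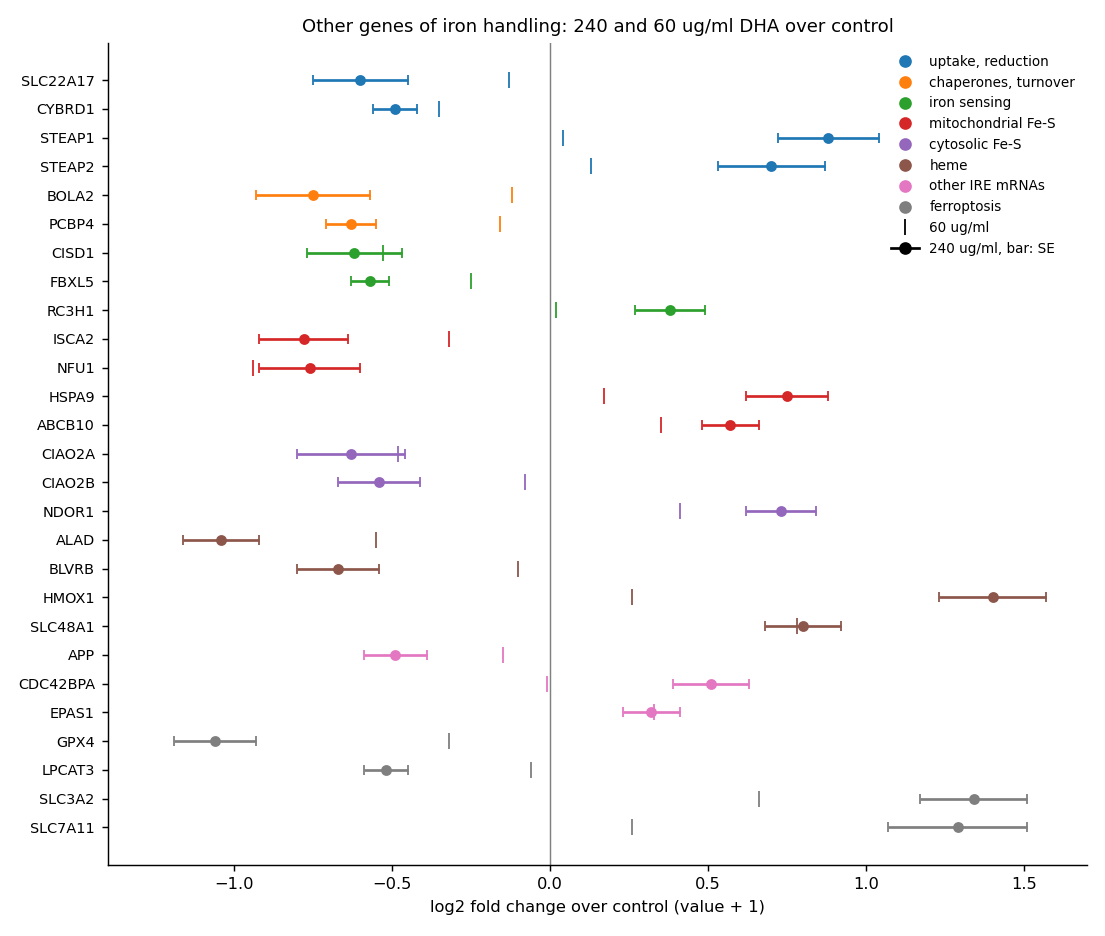
Log2 fold change over control (value + 1, horizontal axis) of the named genes of the 8 lists with a called gene at 240 ug/ml (points with SE) and at 60 ug/ml (vertical ticks), with the deposited scaling, coloured by list. HMOX1 (1.40), SLC3A2 (1.34) and SLC7A11 (1.29) lie farthest right and GPX4 (-1.06) and ALAD (-1.04) farthest left; several genes on the left, such as CYBRD1, FBXL5 and APP, were not called lower with equal library totals.

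Over the 12 libraries, the genes whose levels followed those of the members most closely were taken from 10893 genes with a mean of at least 5, by Pearson's r of log2 levels, as a description without a test. TFRC was most like WDR43 (r = 0.987), KRR1 (0.982) and HSPA4 (0.979), and FTL most like HOXD11 (0.989), RPL3 (0.985) and HIGD2A (0.984). FTH1 had no match as close, its highest being USF1 (0.886), AACS (0.869) and F8A1 (0.869). The libraries share their scaling and their dose, and both enter these values.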

How the data were processed

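Poly(A) RNA of HK-2 cells was sequenced as paired-end, strand-marked libraries, per the labels' protocols. The authors deposited 1 table with a normalised signal for each of 267165 transcripts in 12 libraries. No source used here names the unit; the reading rests on values that are not whole and on totals with a geometric mean of 999925. The build was GRCh38.p14 per the submitters' processing notes, and the aligner, quantification tool and annotation release are named in no source used here. Levels are compared between genes only on this reading, as per-length values.

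Transcripts were matched without version to GENCODE release 29 (202305 matched, 75.7%, carrying 93.8% to 94.7% of each total) and summed per gene; genes and transcripts with at least 1 in at least 3 libraries were tested. limma 3.58.1 (R 4.3.3, trend) fitted 4 group means to log2(value + 1), with Benjamini-Hochberg adjustment over 16789 genes or 61128 transcripts, two-sided, called at 0.05; the planned count test could not be used, since the table holds no counts. The 6 ratios were tested by exact permutation. The fit was tested on simulated data for 240 ug/ml over control. It recovered 44% of 50 changes of 0.5 on the log2 scale and 88% of 50 changes of 1, with 5 false calls. Changes of 0.5 or less can therefore go uncalled. The members and lists were chosen with earlier results of these data known. Named were the 9 members, their transcripts with a mean of at least 1, the 2 highest and 2 lowest called genes of each list at 240 ug/ml, and the 3 closest patterns of FTH1, FTL and TFRC. The values of 1 gene that this rule names are not reported here. Alternatives were equal library totals, quantile normalisation, filters, a pseudocount of 0.1, GC and length trends, a replicate block, only the groups compared, protein-coding transcripts alone, pseudogenes summed in, limma without the trend, and each library left out.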

Additional observations from a re-analysis of the deposited data

How the results depend on the processing

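Calls for NCOA4 and SLC40A1 at all 3 doses and for TFRC at 240 ug/ml, each against control, were kept under every alternative run. Signs turned for FTH1 at 240 ug/ml with equal totals (0.29), quantile normalisation (0.75), a length trend (0.14), the replicate block with both trends (0.19) and without FTH1-206 (0.37), and for FTL with quantile normalisation (0.25, 0.23 and 0.01 at 60, 120 and 240 ug/ml). They also turned for SLC11A2 with equal totals (0.10, 0.18 and 0.18 at the 3 doses) and at 60 ug/ml with a GC trend (0.03), for STEAP3 at 240 ug/ml with equal totals (0.37) and a GC trend (0.05), and for ACO1 with a length trend (-0.02 at 120 and -0.01 at 240 ug/ml). The causes were not tested. Of the 9 genes, the number called higher at 60 ug/ml was 3 with equal totals and 0 with a pseudocount of 0.1, no filter, only the groups compared, limma without the trend, a GC or length trend subtracted, or the replicate block with both trends. It was 5 at 120 ug/ml with equal totals and 2 with quantile normalisation, a length trend, or the replicate block with both trends. The number lower at 120 ug/ml was 2 with quantile normalisation or no filter and 4 with protein-coding transcripts alone. At 240 ug/ml the number higher was 5 with equal totals and 2 with quantile normalisation, a filter at 5, only the groups compared, or FTH1 without FTH1-206. The number lower at 240 ug/ml was 2 with quantile normalisation. It was 3 with equal totals, no filter, only the groups compared, a GC trend, or limma without the trend. At 240 over 60 ug/ml the number higher was 1 with a GC trend or the replicate block with both trends. The number lower was 1 with equal totals or a GC trend and 0 with only the groups compared. It was 2 with quantile normalisation, no filter or a length trend, and 4 with the replicate block with both trends or limma without the trend. At 120 over 60 ug/ml the number higher was 1 with quantile normalisation, a filter at 5, the replicate block, or the block with both trends, and the number lower was 2 with the replicate block and 1 with both trends added.

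Leaving out 1 library at a time gave 0 to 1 higher at 60 and at 120 ug/ml, and 1 to 2 higher and 3 to 4 lower at 240 ug/ml. It gave 1 to 2 higher and 0 to 3 lower at 240 over 60 ug/ml, and 0 to 1 higher and 0 to 2 lower at 120 over 60 ug/ml. The ratio differences ran from 0.64 to 0.78 for FTH1 over FTL, -2.06 to -1.78 for SLC40A1 over TFRC and -0.84 to -0.74 for NCOA4 over FTH1, with an adjusted p of 0.0727 without any control library, where fewer arrangements exist, and from -0.02 to 0.21 for IREB2 over ACO1. Same-numbered libraries deviated together in part (r = -0.0247 to 0.236, against -0.21 to 0.111 for libraries of different numbers). The numbers were not read as pairs in the main fit. The replicate block left the counts against control at 1 higher and 2 lower, 1 and 3, and 1 and 4. At 120 over 60 ug/ml it changed the result, with TFRC called higher and SLC40A1 and STEAP3 lower. Over all genes the calls there were 699 higher and 1086 lower with the block, against 90 and 270 without it. Depth is unknown, so the limit for low genes such as SLC40A1 cannot be given.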
